A study of Mus musculus with 10 samples.

Results

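The levels of 10 genes that drive or mark epithelial-mesenchymal transition (EMT) were examined in 10 mouse tumors. They were the transcription factors Snai1, Snai2, Twist1, Twist2, Zeb1, Zeb2 and Prrx1 and the mesenchymal genes Vim, Cdh2 and Fn1, chosen by name among the 21959 genes of the expression table. Cells of 4T1, a mammary carcinoma line of the mouse, had been injected under the abdominal skin of female BALB/c mice obtained at 5 to 6 weeks of age, and the tumors that grew were sampled. The exercise group (E, tumors E1 to E5) had free access to running wheels for 21 days, and the non-exercise group (NE, tumors NE1 to NE5) was kept under normal husbandry. All 10 mice carried the same cell line and no other intervention, and 1 library of messenger RNA was sequenced per mouse.

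EMT is the program by which epithelial cells give up the junctions that hold them in a sheet and take on the shape and motility of mesenchymal cells. The Snail, Twist and Zeb families of transcription factors repress junction genes such as E-cadherin (Cdh1) and are accompanied by mesenchymal products such as vimentin, N-cadherin and fibronectin. Fibroblasts, pericytes and other stromal cells of a tumor express many of the same genes, so that in RNA of whole tumor tissue fewer cells of a type and less RNA per cell cannot be told apart.

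The libraries held 15045613 to 23092251 counted reads, the fewest in E5. Before the 10 genes are described, 3 tumors have to be set apart by their marker genes. Each marker score is the mean of log2(CPM + 1), with CPM the count scaled to the size of the library, over a list of genes that mark a cell type. NE1 had the lowest fibroblast score (5.40, the others 6.67 to 8.68), macrophage score (6.30, the others 7.23 to 8.13) and skeletal muscle score (0.430). NE4 had the highest skeletal muscle score (10.04, the others up to 7.39) and pericyte and smooth muscle score (3.52, the others up to 3.15). E5 had the highest fibroblast score (8.68) and neutrophil score (4.39). NE5 alone held skin keratinocyte RNA in quantity, with 556 reads of Krt1 against at most 7 in any other tumor. The highest gene of each list by mean FPKM was Lyz2 for macrophages (1273), Acta1 for skeletal muscle (595), Col3a1 for fibroblasts (235), S100a9 for neutrophils (23.4), Nkg7 for T and NK cells (22.3), Acta2 for pericytes and smooth muscle (15.6), Pecam1 for endothelial cells (11.8), Cfd for adipocytes (6.22) and Krt10 for skin keratinocytes (0.772). Genes with 0 reads in at least 1 tumor were found only in the skeletal muscle list (Myh2, Myh4, Tnnc2 and Pvalb), the adipocyte list (Adipoq, Plin1, Cidec and Lep), the skin keratinocyte list (Krt1, Krt77, Lor, Flg and Ivl) and the epithelial list (Krt8, Cldn3, Cldn4 and Esrp1). The mice are described as female, but 4 genes of the Y chromosome (Ddx3y, Eif2s3y, Kdm5d and Uty) had 37 to 564 reads in every tumor.

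The carcinoma origin was checked against 12 epithelial genes, and most had few reads. Reads of Epcam, an epithelial adhesion molecule, numbered 10 to 66 per tumor, and at most 48 outside NE5, the tumor with skin RNA. The simple-epithelium keratins Krt8 and Krt18 had 0 to 27 and 2 to 48 reads, and the claudins Cldn3 and Cldn4 at most 2 and 7 reads. Cdh1, the E-cadherin gene that the Snail and Zeb factors repress, had 144 to 434 reads (2.44 ± 1.04 FPKM, SD, n = 10), and at most 263 outside NE5. FPKM is the number of fragments per kilobase of gene length, scaled to the reads of the library. It compares levels of different genes only as far as that length is the length of the transcript made. Only Krt19, with 157 to 498 reads and 7.92 ± 2.48 FPKM, was higher among the 12. Low counts in these data need not mean that a transcript is absent. Tnnc2 had at most 3 reads in any tumor, where Tnni2 of the same muscle list reached 26088. Tagln had 1 to 8 reads beside 480 to 1096 of Acta2, and the reason was not tested. With such counts the tumors did not show the epithelial side of the label, and the identity of the cells was not tested.

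Promoter sequences were matched by symbol in RefSeq (GRCm38.p6), where 6 of the 10 genes had an entry of 250 bases before and 50 bases after a transcription start, namely Snai1, Twist1, Twist2, Zeb2 (4 starts), Vim and Prrx1. Snai2, Zeb1, Cdh2 and Fn1 had none in this table. The 9 windows were searched for CAGGTG and CACCTG, the E-box that the Snail and Zeb proteins bind and whose 2 forms are the same site on opposite strands, and for the general E-box CANNTG of basic helix-loop-helix proteins such as Twist, which includes the former. Only the window of Snai1 (chr2:167537945-167538244, plus strand) held either motif, a single CACCTG at base 125. Among all 32851 promoters of the table, 20.2% held CAGGTG or CACCTG and 72.3% held CANNTG. The windows of Twist2 (chr1:91801211-91801510, plus strand) and Vim (chr2:13574061-13574360, plus strand) are shown with it because these genes varied together across the tumors, as described further on. Capitals mark the E-box, and the last 50 bases lie after the transcription start.
Snai1: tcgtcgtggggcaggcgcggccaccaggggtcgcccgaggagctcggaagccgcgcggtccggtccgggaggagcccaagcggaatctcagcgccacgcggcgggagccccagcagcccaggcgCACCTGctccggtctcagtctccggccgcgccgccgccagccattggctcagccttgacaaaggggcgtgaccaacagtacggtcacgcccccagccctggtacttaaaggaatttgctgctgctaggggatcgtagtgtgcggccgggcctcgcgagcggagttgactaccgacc
Twist2: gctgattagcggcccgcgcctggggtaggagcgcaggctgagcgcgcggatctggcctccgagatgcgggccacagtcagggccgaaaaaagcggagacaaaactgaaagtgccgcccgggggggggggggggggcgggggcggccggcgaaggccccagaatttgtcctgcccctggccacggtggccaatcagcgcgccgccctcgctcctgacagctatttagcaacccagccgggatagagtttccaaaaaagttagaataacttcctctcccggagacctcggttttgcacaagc
Vim: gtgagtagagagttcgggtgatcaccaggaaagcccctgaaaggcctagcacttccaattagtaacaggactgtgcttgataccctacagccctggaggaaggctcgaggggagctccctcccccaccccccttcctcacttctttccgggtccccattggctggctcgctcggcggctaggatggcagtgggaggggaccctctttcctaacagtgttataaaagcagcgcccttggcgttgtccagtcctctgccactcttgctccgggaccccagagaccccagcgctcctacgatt
A match is a run of letters and not a measured binding site, and the absence of one says nothing of sites outside the window. The GC content was 70.0% in the window of Snai1, 64.7% in that of Twist2 and 59.3% in that of Vim.

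The first question was whether voluntary running changed the level of the 10 genes. All 10 passed the filter on low counts. By edgeR's quasi-likelihood test none reached both the 2-fold difference and the false discovery rate (FDR) of 0.05 required for a call, against 0% of the 13517 genes tested. None of the 10 had an unadjusted p of at most 0.05 either, against 4.86% (657) of all genes tested, and for each of the 10 the ranges of the groups overlapped, where 0.725% of all genes tested had groups that did not overlap. DESeq2 called 0 genes by both thresholds and 3 by the FDR alone. It gave 800 genes with an unadjusted p of at most 0.05, where limma-voom with sample weights gave 1800, none of them among the 10. The median log2 fold change (E minus NE) was 0.05 over the 10 genes and -0.01 over all genes tested. The p-values set the difference between the groups against the spread between the mice of a group.

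**Figure D1:**
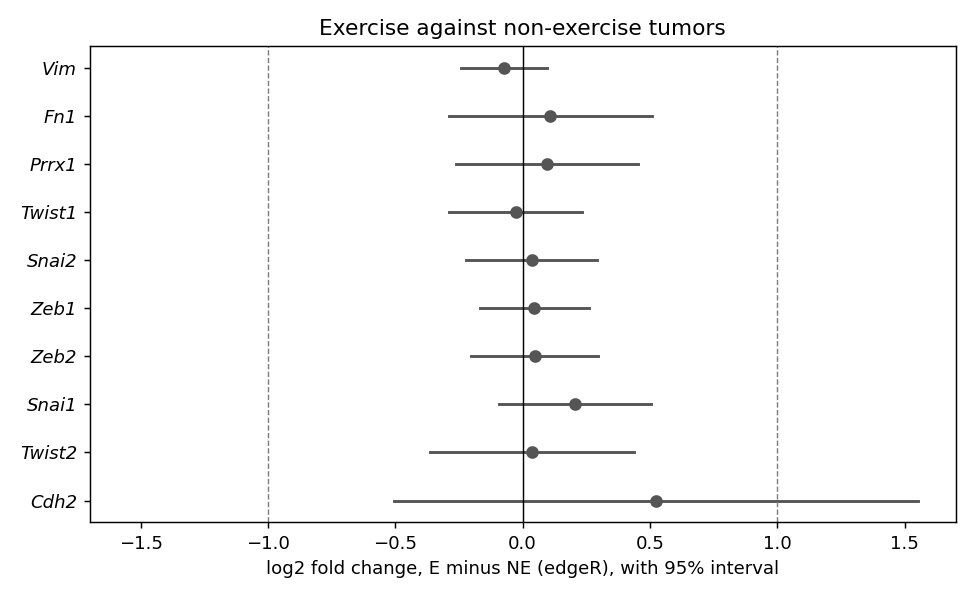
Log2 fold change (E minus NE) of each gene from edgeR's quasi-likelihood fit, with its 95% interval as a line; dashed lines mark a fold change of 2 in each direction. Every interval includes 0, and that of Cdh2, which has the fewest reads, is the widest (-0.50 to 1.55).

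Snai1 and Snai2 encode Snail and Slug, zinc-finger repressors of E-cadherin. Snai1 stood at 6.24, 6.98, 6.02, 6.82 and 9.23 FPKM in E1 to E5 and at 6.57, 5.64, 5.92, 4.49 and 7.33 FPKM in NE1 to NE5. E5 was the highest and NE4 the lowest, and the remaining 8 tumors of both groups lay between 5.64 and 7.33 FPKM. The group means were 7.06 ± 1.28 FPKM in E and 5.99 ± 1.06 FPKM in NE (SD, n = 5 each), with a log2 fold change of 0.21 (SE 0.15, 95% interval -0.09 to 0.50, edgeR adjusted p = 0.897). This was the smallest unadjusted p among the 10 genes (p = 0.206 by edgeR, p = 0.190 by an exact permutation test, two-sided, on log2(FPKM + 1)), where the smallest p that 5 against 5 tumors allow is 0.00794. The log2 fold change of Snai1 was 0.095 without E5, 0.13 without NE4 and 0.033 without E5, NE1 and NE4. Snai2 stood at 19.1, 17.4, 19.4, 21.4 and 19.2 FPKM in E1 to E5 and at 21.1, 21.7, 19.7, 12.1 and 18.0 FPKM in NE1 to NE5. NE4 lay far below the range of the exercise group, NE2 just above it, and the other 3 within it. The difference of Snai2 was 0.04 on the log2 scale (SE 0.13, edgeR adjusted p = 0.975).

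Twist1 and Twist2 encode basic helix-loop-helix factors that act in mesoderm and in mesenchymal cells. The FPKM of Twist1 were 23.7, 26.4, 24.8, 23.9 and 22.8 in E1 to E5 and 34.2, 21.9, 21.2, 18.8 and 25.6 in NE1 to NE5. The exercise tumors lay within a narrow band, and NE1 and NE4 held the top and the bottom of the other group. Both groups had a mean of 24.3 FPKM, with an SD of 1.37 in E and 6.02 in NE. Twist2 was about an order of magnitude lower, at 2.50, 2.21, 2.77, 2.28 and 1.78 FPKM in E1 to E5 and 2.93, 2.43, 2.25, 1.26 and 2.22 FPKM in NE1 to NE5. Again NE1 was the highest and NE4 the lowest of the 10 tumors. The log2 fold changes were -0.03 (SE 0.13, edgeR adjusted p = 0.983) for Twist1 and 0.04 (SE 0.20, edgeR adjusted p = 0.987) for Twist2.

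Zeb1 and Zeb2 encode zinc-finger homeobox repressors of junction genes, which microRNAs of the miR-200 family hold down in epithelial cells. Zeb1 stood at 6.45, 8.20, 8.96, 8.36 and 7.71 FPKM in E1 to E5 and at 6.87, 8.91, 7.78, 6.20 and 7.90 FPKM in NE1 to NE5. The lowest tumor was NE4 and the highest E3, 1.45 times apart. Zeb2 had nearly the same level, with 6.60, 7.06, 7.97, 7.58 and 8.43 FPKM in E1 to E5 and 5.22, 7.93, 7.94, 6.43 and 8.07 FPKM in NE1 to NE5. NE1, the tumor with the least macrophage and fibroblast RNA, was the lowest, and E5 the highest. The log2 fold changes were 0.05 for both (SE 0.11 and 0.13, edgeR adjusted p = 0.957 and 0.962). From start to end, Zeb2 overlaps the annotated gene Zeb2os on the opposite strand. Whether their exons overlap was not tested. Since the counting is not stated to use strand, any reads they share cannot be told apart.

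Prrx1 encodes a paired-type homeobox factor of limb and craniofacial mesenchyme that is also expressed in fibroblasts. Its FPKM were 22.0, 27.5, 32.3, 28.0 and 30.8 in E1 to E5 and 23.7, 36.7, 28.8, 16.6 and 23.2 in NE1 to NE5. NE2 was the highest and NE4 the lowest, 2.21 times apart, and both belonged to the same group. The log2 fold change was 0.10 (SE 0.18, 95% interval -0.26 to 0.45, edgeR adjusted p = 0.947).

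Vim encodes vimentin, the intermediate filament of mesenchymal cells, and was the highest of the 10 genes. It stood at 804, 759, 844, 798 and 744 FPKM in E1 to E5 and at 953, 832, 792, 635 and 866 FPKM in NE1 to NE5. As for Twist1 and Twist2, NE1 was the top and NE4 the bottom, with the exercise tumors in between. The means were 790.1 ± 39.5 FPKM in E and 816 ± 117 FPKM in NE (SD, n = 5 each), and the log2 fold change was -0.07 (SE 0.09, 95% interval -0.24 to 0.10, edgeR adjusted p = 0.914). Vim alone took 0.301% to 0.452% of the reads of a tumor.

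Fn1 encodes fibronectin, a glycoprotein of the extracellular matrix. It stood at 408, 446, 494, 423 and 437 FPKM in E1 to E5 and at 605, 419, 335, 218 and 439 FPKM in NE1 to NE5. The same tumors, NE1 and NE4, were the highest and the lowest, 2.77 times apart. The means were 442 ± 32.4 FPKM in E and 403 ± 142 FPKM in NE (SD, n = 5 each), and the log2 fold change was 0.11 (SE 0.20, 95% interval -0.29 to 0.51, edgeR adjusted p = 0.947).

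Cdh2 encodes N-cadherin, the cadherin that replaces E-cadherin in the textbook form of EMT, and it had few reads. The read counts were 15, 18, 17, 31 and 58 in E1 to E5 and 13, 17, 23, 47 and 17 in NE1 to NE5. E5 and NE4 were the highest, 1 in each group, and the other tumors held 31 reads or fewer. The FPKM averaged 0.199 ± 0.162 for E and 0.132 ± 0.0712 for NE (SD, n = 5 each), and the log2 fold change was 0.52 (SE 0.52, edgeR adjusted p = 0.898). Without E5 the log2 fold change was -0.07, so that its direction rests on that tumor.

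**Figure D2:**
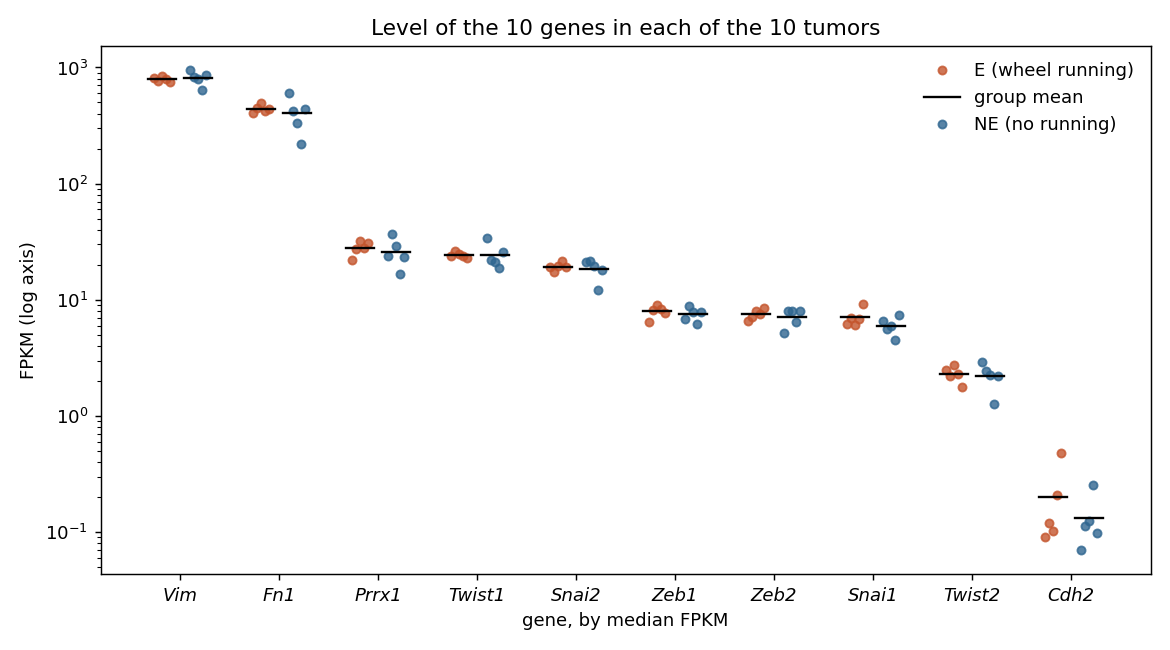
FPKM (log axis) of the 10 genes, ordered by median; each point is 1 tumor, orange for E and blue for NE, and black lines are group means. Vim and Fn1 lie at 218 FPKM or more in every tumor, the transcription factors between 1.26 and 36.7 FPKM, and Cdh2 at 0.478 FPKM or less, with E and NE points intermixed for every gene.

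The order of the levels was the same in broad lines in every tumor. By median FPKM it ran from Vim (801) and Fn1 (430) over Prrx1 (27.8), Twist1 (23.8) and Snai2 (19.3) to Zeb1 (7.84), Zeb2 (7.76), Snai1 (6.41), Twist2 (2.26) and Cdh2 (0.116). Vim was above Fn1 in 10 of 10 tumors, and their ranges did not overlap (lowest Vim 635 FPKM, highest Fn1 605 FPKM). Prrx1 and Twist1 could not be ordered, with Prrx1 higher in 6 of 10 tumors. Twist1 exceeded Snai2 in 10 of 10 tumors although their ranges overlapped. Zeb1 exceeded Zeb2 in 5 of 10 tumors and Zeb2 exceeded Snai1 in 8 of 10, so that these neighbors were not separated beyond their spread. Ranked among all 21959 genes by mean FPKM, Vim was number 27, Fn1 number 64, Prrx1 number 1959 and Cdh2 number 13661. The order between genes rests on the gene lengths used, such as 4743 bases for Vim, 11685 for Fn1 and 20203 for Zeb2. By reads Fn1 took more of the total than Vim (0.492% against 0.382%). How far these lengths match the transcripts made was not tested.

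The next question was which of the genes were stable across the tumors. The coefficient of variation (CV) of the CPM over the 10 tumors had a median of 13.3% over the 13517 genes tested, and a gene was described as stable at or below it. By this measure 2 of the 10 were stable, Vim with 9.71% and Zeb1 with 12.3%. Snai2 and Zeb2 (13.7% each) missed the median by little, and Twist1 (15.7%), Snai1 (17.7%), Twist2 (20.3%), Prrx1 (21.1%) and Fn1 (22.5%) lay above it. Cdh2 had 73.5%, at percentile 94.98 of the genes tested, where the counting of so few reads gives 19.8% by itself. For Vim, Fn1, Prrx1 and Zeb2 counting contributed less than 2% and for Twist2, the next lowest in reads, 8.28%.

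**Figure D3:**
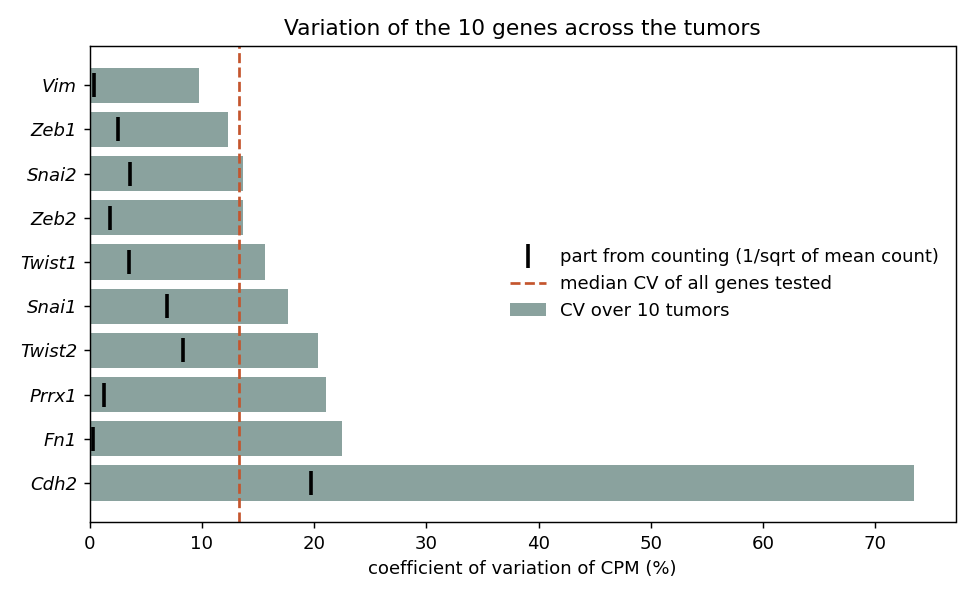
CV of the CPM over the 10 tumors (bars), the part that counting gives (black marks, 1 over the square root of the mean count) and the median CV of all genes tested (dashed line, 13.3%). Vim and Zeb1 lie below the line, Snai2 and Zeb2 touch it, and Cdh2 stands far above the rest.

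The number of stable genes depended on the tumors set apart above. Without E5, NE1 and NE4, 6 of the 10 genes had a CV at or below the median, and the CV of Twist1 moved from percentile 58.0 to percentile 30.5 of all genes tested and that of Twist2 from 68.0 to 40.6. Leaving out NE4 alone moved Snai2 from percentile 51.2 to 24.3. Prrx1 (percentile 72.8), Cdh2 (88.5), Fn1 (53.5) and Zeb1 (51.2) stood above the median without the 3 tumors. Among the 7 transcription factors Prrx1 had the highest CV with these tumors and without them, and the percentiles of the Twist genes, Snai1, Snai2, Zeb2, Vim and Fn1 were lower without them. For each of the genes with a lower percentile, E5, NE1 or NE4 held the highest or the lowest CPM. A lower CV without them follows in part from this choice of tumors, which was made after seeing the data.

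To see which genes followed the other cells of the tumor, the log2(CPM + 1) of each was correlated with 6 marker scores and with the log2 of the total count, 70 relations in all. Pearson's r and Spearman's rho were tested with 100000 permutations, and p was adjusted over all genes tested for the score. By Pearson's r 3 of the 70 relations had an adjusted p of at most 0.05, and by Spearman's rho 0 had. The 10 genes did not go one way. Vim, Twist1, Twist2, Snai2 and Fn1 had negative r with each of the fibroblast, pericyte and smooth muscle, endothelial cell, macrophage and skeletal muscle scores, and Cdh2 had positive r with each of them. Zeb2 had positive r with these 5 scores, from 0.03 for endothelial cells to 0.64 for macrophages. None of these signs was tested as a pattern, and the scores share the same 10 libraries.

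**Figure D4:**
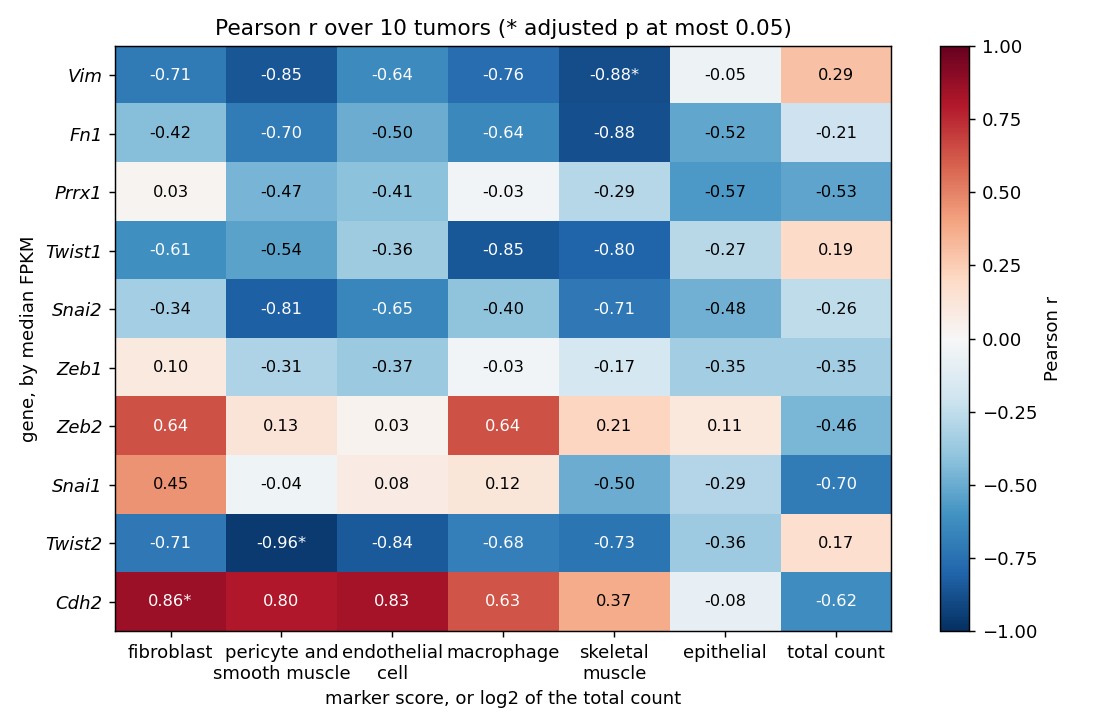
Pearson's r over the 10 tumors of each gene (rows, by median FPKM) with each marker score and with the log2 total count (columns); red is positive and blue negative, and an asterisk marks an adjusted p of at most 0.05. Vim, Fn1, Twist1, Snai2 and Twist2 are blue and Cdh2 red across the 5 stromal and muscle columns, and the 3 asterisks stand at Vim with skeletal muscle, Twist2 with pericyte and smooth muscle, and Cdh2 with fibroblast.

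By r, Cdh2 was the only gene of the 10 called for the fibroblast score, but it was not particular to that score. With the endothelial cell score its r was 0.835 (permutation p = 0.0125, adjusted p = 0.414). With the pericyte and smooth muscle score its r was 0.799 (permutation p = 0.0130, adjusted p = 0.158). Without NE4 and E5 these values were 0.111 and 0.594. Against the fibroblast score (12 genes, led by Col3a1 and Col1a1) r was 0.856 (permutation p = 0.0005, adjusted p = 0.0388) and rho 0.782 (permutation p = 0.00988, adjusted p = 0.241), and 1.49% of all genes tested were called with a positive relation. Without E5 and NE1, the tumors farthest from the median score, r was 0.717, and without E5, NE1 and NE4 it was 0.623 and no longer called. Of the 10 tumors left out in turn, the call held only without E2 or without NE5, and the adjusted p was highest without E5 (0.332) and without NE1 (0.201). The r itself was lowest without E5 (0.722) and highest without NE1 (0.907). At the same r fewer tumors give a higher p, so that a lost call does not by itself single out a tumor. Within the groups, with the mean of E and of NE removed, r was 0.852 (adjusted p = 0.0319). This permutation moved values between the groups and did not allow for the means removed, so that its p can be too small. The fibroblast genes themselves were at 3131 to 18265 summed CPM in E and 1779 to 5538 in NE, and all 12 had positive log2 fold changes (E minus NE, median 0.54), with none called and 2 (Col5a1 and Col6a1) at an unadjusted p of at most 0.05, against 4.86% of all genes tested. Without E5 alone 8 of 12 were positive with a median of 0.20, and without E5, NE1 and NE4 9 of 12 with a median of 0.20. The gene closest to Cdh2 across the tumors was Pdgfra (r = 0.967), a receptor that is on the fibroblast list. Without the 2 tumors farthest from the median of Cdh2 its r was 0.774. The part of fibroblasts in the reads of Cdh2 was not tested.

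Twist2 had the strongest relation of all, with a negative sign. Against the pericyte and smooth muscle score (led by Acta2 and Rgs5) r was -0.958 (permutation p = 0.00011, adjusted p = 0.0253) and rho -0.782 (permutation p = 0.0106, adjusted p = 0.227), where 0.296% of all genes tested were called with a negative relation. Without NE4 and E5, the farthest tumors, r was -0.754. Without E5, NE1 and NE4 it was -0.646 and no longer called. Leaving out E5, NE1, NE4 or E2 alone also ended the call (adjusted p = 0.105, 0.0947, 0.0836 and 0.0554). The r in these 4 cases was -0.951, -0.954, -0.894 and -0.959, and at the same r fewer tumors give a higher p. Within the groups r was -0.969 (adjusted p = 0.00965), where the limit given for this p at Cdh2 holds as well.

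Vim had a negative relation to skeletal muscle RNA. Against the skeletal muscle score (led by Acta1 and Tnnt3) r was -0.885 (permutation p = 0.00097, adjusted p = 0.0432) and rho -0.745 (permutation p = 0.0169, adjusted p = 0.313), where 0.237% of all genes tested were called with a negative relation. The summed CPM of the muscle list ran from 6.28 in NE1 to 28837 in NE4, the tumors with the most and the least Vim. Without these 2 tumors r was -0.629, and without E5, NE1 and NE4 it was -0.890 (adjusted p = 0.370). Of the 10 tumors left out in turn, the call held only without E5, and the adjusted p was highest without NE4 (0.346). Over these sets r ran from -0.965 without E5 to -0.800 without NE4. Fn1 came next, with r = -0.880 (permutation p = 0.00212, adjusted p = 0.0729) and rho = -0.794 (permutation p = 0.00898, adjusted p = 0.237), but without NE4 and NE1 its r was -0.493.

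**Figure D5:**
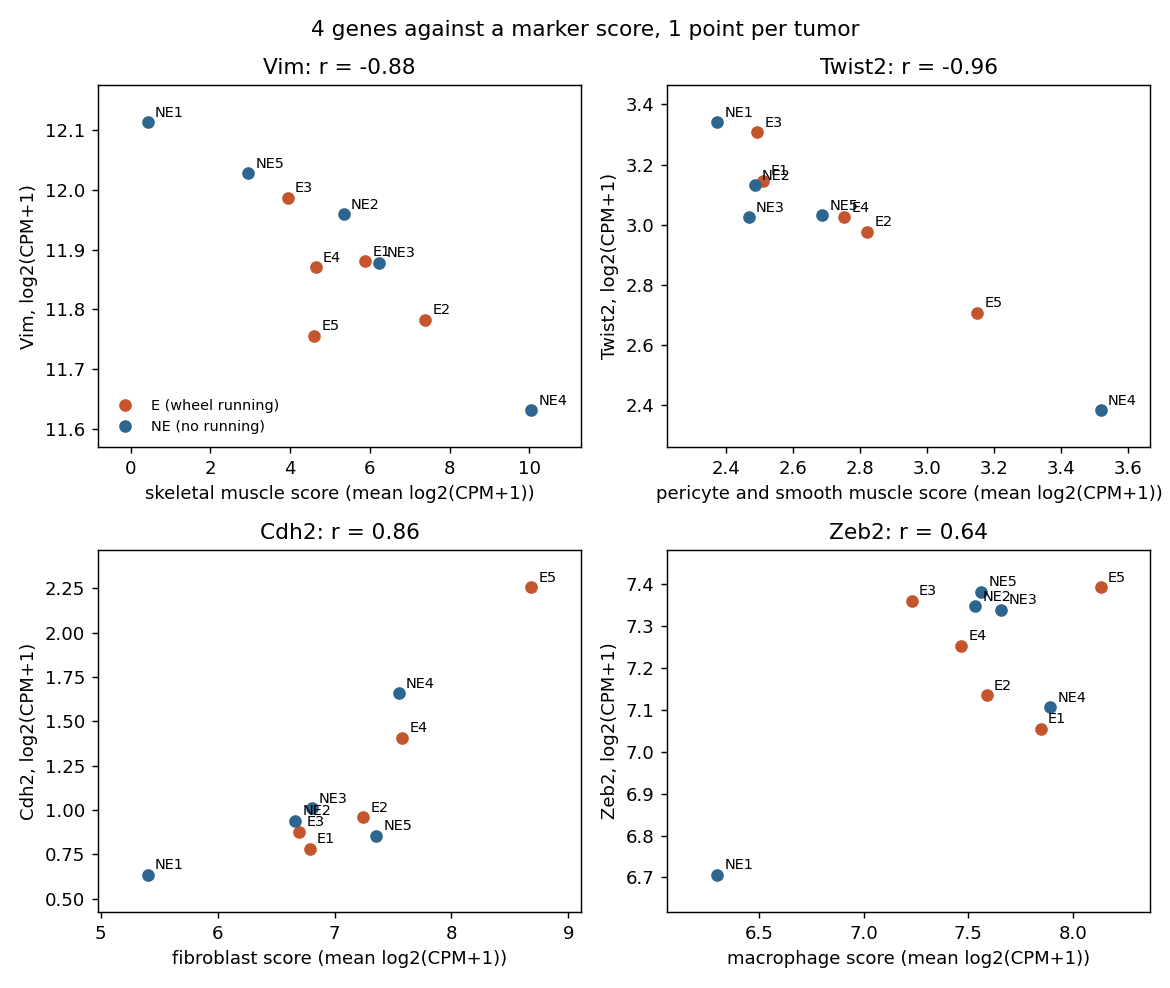
Log2(CPM + 1) of Vim, Twist2, Cdh2 and Zeb2 against 1 marker score each (mean log2(CPM + 1) over its genes); each point is a tumor, orange for E and blue for NE. NE4 and E5 hold the lower right end for Twist2, E5 the upper right end for Cdh2, and NE1 alone the lower left end for Zeb2, where the other 9 tumors give r = -0.239.

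The relations of the Zeb genes and Prrx1 to macrophage RNA moved with the tumors included. Zeb2 had r = 0.637 with the macrophage score over all 10 tumors (permutation p = 0.0738, adjusted p = 0.336) and rho = 0.139 (permutation p = 0.708, adjusted p = 0.866). Without NE1 and E5 its r was -0.709. It was 0.589 without E5 alone and -0.239 without NE1 alone, so that the positive sign rests on NE1. Zeb2 is known to be made by macrophages, and its r with the fibroblast score (adjusted p = 0.333) likewise went from 0.636 to -0.276 without E5 and NE1. Zeb1 had r = -0.0267 with the macrophage score over 10 tumors (permutation p = 0.948, adjusted p = 0.985), rho = -0.576 (permutation p = 0.0882, adjusted p = 0.320) and r = -0.912 without NE1 and E5. Prrx1 had r = -0.0296 (permutation p = 0.932, adjusted p = 0.978), rho = -0.236 (permutation p = 0.514, adjusted p = 0.753) and r = -0.767 for the same sets. Neither was called in the full set, and the values without those tumors are given as a description.

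Of the remaining relations, Vim against the pericyte and smooth muscle score came closest to the threshold, with r = -0.852 (permutation p = 0.00112, adjusted p = 0.0661) and rho = -0.794 (permutation p = 0.00895, adjusted p = 0.212). Its r was -0.613 without NE4 and E5, and it was called when NE5 alone was left out (adjusted p = 0.0233). Twist1 had r = -0.850 against the macrophage score (permutation p = 0.00735, adjusted p = 0.0934, rho = -0.636, permutation p = 0.0536, adjusted p = 0.255). Without NE1 alone it was -0.528. Snai1 had its largest r with the total count (-0.697, permutation p = 0.0309, adjusted p = 0.606, rho = -0.491, permutation p = 0.155, adjusted p = 0.870), and E5, its highest tumor, also had the fewest reads. No gene of the 10 was called for the macrophage, endothelial cell or epithelial score or the total count. A slope of the counts on the score in edgeR called 8 of the 70 relations at an FDR of at most 0.05. They were Cdh2 for fibroblast (3.34% of all genes tested had a positive slope called), Cdh2 for pericyte and smooth muscle (5.8% positive), Twist2 and Vim for pericyte and smooth muscle (0.969% negative), Twist1 for macrophage (0.969% negative) and Vim, Fn1 and Twist1 for skeletal muscle (0.57% negative).

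Among themselves the 10 genes gave 45 pairs, 32 with positive and 13 with negative r. Vim and Twist2 were the closest pair, with r = 0.886 (permutation p = 0.00048, adjusted p = 0.0315 over all genes tested against Vim), rho = 0.903 (permutation p = 0.00087, adjusted p = 0.0703) and r = 0.717 without the 2 tumors farthest from the median of Vim, and 1.12% of all genes tested were called with a positive relation to Vim. Zeb1 and Prrx1 followed with r = 0.850 (adjusted p = 0.0506 against Zeb1 and 0.219 against Prrx1), then Twist1 and Fn1 with 0.837 (adjusted p = 0.124 and 0.0762). Both Twist genes had r = 0.679 with each other and both Zeb genes 0.680, while Snai1 and Snai2 had 0.376. The most negative pair was Twist2 and Cdh2 (r = -0.777, rho = -0.879), and Cdh2 had negative r with Vim (-0.723), Twist1 (-0.555) and Fn1 (-0.442) as well. These pair values are descriptions, and the genes share the same 10 libraries. Vim, Fn1, Twist1 and Twist2 were each highest in NE1 and lowest in NE4.

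Outside the 10, the 3 genes with the highest r over the 10 tumors were taken for each. They were chosen for this value, so that no test is given. For Vim they were Ube2e2 (0.968), Zfp217 (0.945) and Akr1b8 (0.941), and for Twist2 Ltbp1 (0.966), which encodes a protein that stores latent TGF-beta in the matrix, Eif4a1 (0.964) and Runx2 (0.964). For Fn1 they were Thsd4 (0.976), Cttn (0.974), which encodes the actin regulator cortactin, and Kansl3 (0.973). The closest single match of all was L3mbtl4 to Prrx1 (0.991), a gene at a mean of only 0.539 FPKM, followed by Nrbp2 (0.946) and Recql (0.935). Zeb1 was nearest to Zfp945 (0.981), Macf1 (0.972) and Trps1 (0.969), which kept r of 0.969, 0.956 and 0.970 without the 2 tumors farthest from the median of Zeb1. Twist1 was nearest to Foxred2 (0.948), Arl2 (0.947) and Dgcr6 (0.945), and Zeb2 to Lilrb4a (0.961), a receptor of myeloid cells, Dennd4a (0.959) and Snx2 (0.958). For Snai1 they were Pxdn (0.929), Zc3h12a (0.919) and Rfx5 (0.919), for Snai2 Etfb (0.949), Strada (0.946) and Gng11 (0.941), and for Cdh2 Dact1 (0.961) and G0s2 (0.958) after Pdgfra. Apart from the neighbors of Zeb1, every r was lower without the 2 tumors farthest from the median of the gene concerned. These lower values ran from 0.653 (Etfb with Snai2) to 0.973 (L3mbtl4 with Prrx1).

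The wider EMT program was read from 4 further lists. Of 13 other EMT transcription factors 11 passed the filter, with none called, none at an unadjusted p of at most 0.05 and a median log2 fold change of 0.08. The highest were Hmga2, a chromatin factor (65.7 ± 13.2 FPKM, SD, n = 10), and Sox4 (25.5 ± 5.70 FPKM). Gsc had at most 2 reads. Of 8 genes of TGF-beta signaling, a main inducer of EMT, all passed the filter, none was called or at an unadjusted p of at most 0.05, and the median was 0.02. The CV was 6.03% for the signal mediator Smad4 (36.4 ± 2.62 FPKM) and 12.5% for the receptor Tgfbr2 (35.6 ± 4.73 FPKM), against the median of 13.3% over all genes tested.

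Of 12 other mesenchymal and matrix genes none was called, 3 had an unadjusted p of at most 0.05 (4.86% of all genes tested), and 11 of 12 had positive log2 fold changes, with a median of 0.29. The 3 were the matrix protein gene Sparc (648 ± 125 FPKM, log2 fold change 0.27, SE 0.12), the membrane protease gene Mmp14 (0.32, SE 0.14) and the fibronectin receptor gene Itga5 (0.20, SE 0.08), each with an edgeR adjusted p of 0.897. Without E5, NE1 and NE4, 9 of 12 were positive with a median of 0.12 and 0 had an unadjusted p of at most 0.05. Without E5 alone the median was 0.16 and Sparc alone passed, and without NE1 alone Mmp14 and Itga5 did. E5 and NE1 were also the tumors with the most and the least fibroblast RNA, and its part in these values was not tested. Cd44, an adhesion receptor, stood at 114 ± 12.6 FPKM with a CV of 9.99%, close to that of Vim. S100a4, often used as a marker of fibroblasts and of EMT, had only 10 to 24 reads, where the limit on low counts given above holds.

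Of 15 genes of epithelial junctions and their regulators 8 passed the filter and none was called. Epcam (log2 fold change -1.01, SE 0.39), the tight junction gene Ocln (-0.48, SE 0.18) and the desmosome gene Dsp (-3.15, SE 1.04) had an unadjusted p of at most 0.05 and an edgeR adjusted p of 0.897. Such an unadjusted p was found for 4.86% of all genes tested. Of the 8 genes, 3 had positive and 5 negative log2 fold changes. Dsp reached 531 reads in NE5, the tumor with skin RNA, and at most 77 in any other. Epcam was also highest in NE5, with 66 reads against at most 48 in any other tumor. The part of skin RNA in these differences was not tested. Tjp1, a scaffold protein of tight junctions that many other cells also make, was the exception in level, with 35.9 ± 4.33 FPKM. Crb3, Cldn3, Cldn4, Esrp1, Ovol1 and Ovol2 were at 0 reads in at least 1 tumor. Esrp1 and Ovol1 reached 64 and 14 reads in NE5 and at most 2 and 3 in any other tumor. Of the pair by which EMT is usually read, Cdh1 stood above Cdh2 in these tumors, at 2.44 against 0.166 FPKM on average over the 10 tumors, while Vim stood at 803 FPKM.

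In the reference annotation (GRCm38), Snai1 lies on chromosome 2 from 167538195 to 167542814 with 3 exons, Vim on chromosome 2 from 13573927 to 13582826, and Zeb2 on chromosome 2 from 44983632 to 45117395 on the reverse strand. Twist2 (91801461 to 91848028), Prrx1 (163245119 to 163313710) and Fn1 (71585520 to 71653200) lie on chromosome 1, the last 2 on the reverse strand. Snai2 lies on chromosome 16 from 14705852 to 14709385 and Twist1 on chromosome 12 from 33957671 to 33959829. Zeb1 (5591860 to 5775467) and Cdh2 (16588877 to 16809246, reverse strand) lie on chromosome 18. Annotated genes on the opposite strand also overlap the spans of Fn1, Prrx1, Cdh2, Twist2 and Zeb1, for which the limits given for Zeb2 hold as well. Few stretches of 50 bases of these transcripts occur in another gene, at most 0.963% for Snai2 and none for Snai1, Twist1, Twist2, Vim and Cdh2, so that exact sharing between family members was not found at this length.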

How the data were processed

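The data were messenger RNA libraries of 10 4T1 tumors, 5 per group, grouped by the sample labels. For alignment the authors used Hisat2, and for expression values Stringtie. The methods name a rat assembly (Rnor 6.0), while the table holds mouse Ensembl identifiers, and its build is not given in the sources used here. The authors deposited 1 table with an unnormalized read count and an FPKM per gene and tumor. The deposited FPKM equal count over gene length and total count. How reads were counted, and whether strand was used, is not given in the sources used here. Counting error alone follows from the depth, and PCR copies were not told from separate molecules.

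From the counts, E was compared with NE in edgeR 4.0.16 (TMM, filterByExpr, quasi-likelihood test, Benjamini-Hochberg adjustment, R 4.3.3), with calls made where the fold change reached 2 and the FDR did not exceed 0.05. Single levels were compared on log2(FPKM + 1) with exact two-sided permutation tests, and relations to marker scores with 100000 two-sided permutations (scipy 1.17.1, Python 3.11.15). Alternatives were DESeq2 1.42.0, limma-voom with sample weights (limma 3.58.1), other filters, scalings and thresholds, and the replicate number as a block. Spearman's rho, edgeR slopes and leaving out each tumor were further alternatives. Leaving out E5, NE1 and NE4 together was added after seeing the data. The tests were checked on simulated data.

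The 10 genes and the lists were chosen with earlier results of these data known. The text names the 10 genes, the 2 highest genes and those with an unadjusted p of at most 0.05 of each EMT list, the 3 genes most like each of the 10, and of each marker list the highest gene and genes with 0 reads. Genes of the Y chromosome, S100a4, Col5a1, Col6a1, Krt8, Krt18, Krt19 and second genes of marker lists were named after their values were seen.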

Additional observations from a re-analysis of the deposited data

Results flagged for a closer look

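In 40 groups of 5 values (the FPKM of the 10 genes and the scores of 10 marker lists in E and in NE), the highest or lowest tumor was set against the gap that Dixon's test allows, which chance passes in about 1 of 20 groups. It was passed 7 times, always by a score and by the FPKM of none of the 10 genes, where chance gives about 2 for independent groups. The lists were chosen with earlier results known, and the scores share the same 10 libraries. These counts are therefore a description and not a test against chance. NE4 stood above its group in the pericyte and smooth muscle score (3.52) and in the endothelial cell score (4.29). E5 stood above its group in the endothelial cell score (4.21) and in the neutrophil score (4.39). NE5 stood above its group in the skin keratinocyte score (2.52). NE1 stood below its group in the macrophage score (6.30). E1 stood above its group in the epithelial score (1.19), on a list whose genes mostly had few reads.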

How the results depend on the processing

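No gene of the table was called for exercise under any alternative with both thresholds, and no gene of the 10 had an unadjusted p of at most 0.05 under any of them. With the unadjusted p alone 657 genes passed, and leaving out 1 tumor gave 372 to 1350 genes, the most without NE1. The study speaks of matched pairs, but the labels do not say which tumors were paired, and the deviations of same-numbered tumors correlated at -0.27 to 0.32, so that the numbers were not used as pairs. With the replicate number as a block, 0 genes were called and 714 had an unadjusted p of at most 0.05, against 657 without it.

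The directions of the small differences changed for 8 of the 10 genes under at least 1 alternative, and those of Snai1 and Vim did not in edgeR, DESeq2 or limma-voom. Under limma-voom with sample weights the log2 fold change was -0.064 for Snai2, 0.073 for Twist1 and -0.035 for Twist2. It was -0.038 for Zeb1, -0.092 for Zeb2 and -0.072 for Prrx1. Without E5, NE1 and NE4 it was -0.044 for Snai2, 0.093 for Twist1, -0.048 for Zeb1, -0.14 for Zeb2 and -0.12 for Prrx1. Leaving out 1 tumor gave 0.095 to 0.29 for Snai1, -0.073 to 0.099 for Snai2, -0.098 to 0.13 for Twist1, -0.10 to 0.16 for Twist2, -0.011 to 0.12 for Zeb1, -0.040 to 0.10 for Zeb2, -0.012 to 0.26 for Prrx1, -0.072 to 0.93 for Cdh2 and -0.042 to 0.30 for Fn1. On the log2(FPKM + 1) scale the difference ran from -0.054 to 0.14 for Snai2, -0.054 to 0.15 for Twist1, -0.066 to 0.13 for Twist2, -0.011 to 0.13 for Zeb2, -0.12 to 0.025 for Vim and -0.0019 to 0.11 for Cdh2 when 1 tumor was left out. The cause was not tested.

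With Spearman's rho, or without E5, NE1 and NE4, the number of the 10 genes related to the fibroblast, to the pericyte and smooth muscle and to the skeletal muscle score was 0 in each case. Without those tumors few orderings remain for a permutation p adjusted over all genes tested. A call lost there therefore does not tell which tumors carry a relation. The r of Vim with the skeletal muscle score was -0.890 without them, against -0.885 over all 10 tumors. The edgeR slope gave 3 for pericyte and smooth muscle, 3 for skeletal muscle and 1 for macrophage. Removing the group means, where p can be too small, gave 2 for skeletal muscle and 1 for macrophage. A minimum of 10 counts in every tumor gave 0 for skeletal muscle. Leaving out 1 tumor gave 0 to 1 for fibroblast, 0 to 2 for pericyte and smooth muscle and 0 to 1 for skeletal muscle. The r of Zeb2 without E5, NE1 and NE4 was -0.083 with the fibroblast score and -0.62 with the macrophage score, and with 1 tumor left out it ran from -0.24 to 0.74 with the macrophage score. The number of stable genes was 6 without E5, NE1 and NE4 and 2 to 4 with 1 tumor left out. Depth limits Cdh2, with 13 to 58 reads, and Twist2, with 85 to 215 reads, the most, and the counting error of the other 8 genes was below 7% of their level.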
